A study of Mus musculus with 6 samples.

Results

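A set of 9 genes known to respond to glucocorticoids were followed in the livers of mice that had run on a treadmill and of mice that had stayed sedentary. The 9 genes, Zbtb16, Tsc22d3, Fkbp5, Sgk1, Dusp1, Klf9, Errfi1, Hsd11b1 and Txnip, were looked up by symbol among the 16123 genes of the deposited expression table, and all 9 were found. They were selected on these libraries' own read counts and FPKM (fragments per kilobase and per total mapped, a level adjusted for gene length and library size), so their differences between the groups are given as a description, without a test. The exercise group was 3 liver libraries from mice that ran 22 km each over 6 weeks, with livers taken 24 h after the last session, and the sedentary group was 3 liver libraries from mice without treadmill training. The mice were healthy adults, and the labels name no strain, sex or genotype. The study was set up around moderate exercise, liver metabolism and protein lactylation, and only its RNA data are used here.

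Glucocorticoids are adrenal steroid hormones that enter the cell and bind the glucocorticoid receptor, a transcription factor held ready by heat shock chaperones. The hormone-bound receptor moves to the nucleus, where it binds palindromic DNA elements, often far from gene starts, and raises or lowers transcription of nearby genes. In liver the hormone is known for raising glucose production and amino acid breakdown and for restraining inflammation. Several of the 9 genes also answer to other signals, such as glucose for Txnip and growth factors or stress for Dusp1 and Errfi1.

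The sequences below are pieces of RefSeq promoter windows (GRCm38.p6), shown because they hold matches to the hormone receptor's element or to a cAMP pathway element. RefSeq windows of 250 bases before to 50 bases after an annotated start were matched for 8 of the 9 genes, 16 windows in all. Zbtb16 had no entry. Each piece is written 5′ to 3′ on the strand of its gene, and capitals mark a motif match. All 4 pieces lie before their start, outside annotated exons of the 9 genes. Exons of other genes were not checked.

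Sgk1, chr10:21993640-21993755, plus strand: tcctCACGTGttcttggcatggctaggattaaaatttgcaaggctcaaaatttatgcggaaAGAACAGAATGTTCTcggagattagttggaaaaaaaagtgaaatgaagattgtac

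Txnip, chr3:96557744-96557838, plus strand: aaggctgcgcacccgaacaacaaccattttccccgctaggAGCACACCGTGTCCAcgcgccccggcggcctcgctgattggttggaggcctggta

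Dusp1, chr17:26508553-26508655, minus strand: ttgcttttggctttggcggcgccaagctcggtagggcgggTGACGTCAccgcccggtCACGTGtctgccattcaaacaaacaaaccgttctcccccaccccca

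Errfi1, chr4:150854979-150855066, plus strand: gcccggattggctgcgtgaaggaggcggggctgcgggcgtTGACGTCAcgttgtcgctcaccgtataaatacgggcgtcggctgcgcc

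The Sgk1 piece holds an exact glucocorticoid receptor palindrome, AGAACA and TGTTCT with any 3 bases between, beginning 189 bases before the start at 21993890. It lies on chromosome 10 between 21993701 and 21993715, in introns of longer Sgk1 transcripts (GENCODE vM21). The exact palindrome was present in 3 of 32851 windows, or 0.00913%. A relaxed form, NGNACA and TGTNCN with any 3 bases between, which takes in every exact palindrome, was present in 0.472% of windows. Among the 9 genes the relaxed form had a match of its own in Txnip, beginning 173 bases before the start. The element TGACGTCA, which binds CREB-type factors of the cAMP pathway, was found 143 bases before the Dusp1 start and 51 bases before the Errfi1 start at 150855070, and in 1.79% of all windows. These matches in Dusp1 and Errfi1 each overlapped 1 annotated transcript, outside its exons. The E-box CACGTG, which clock factors and other helix-loop-helix proteins can bind, was found in 1 window each of Dusp1, Fkbp5 and Sgk1. These were among 16 windows searched for the 9 genes, and 7.15% of all windows held an E-box. All 4 motifs read the same on both strands, so 1 search covers both. A match describes the letters of these windows and is not evidence of binding, and the share of windows is over all genes with an entry.

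**Figure D1:**
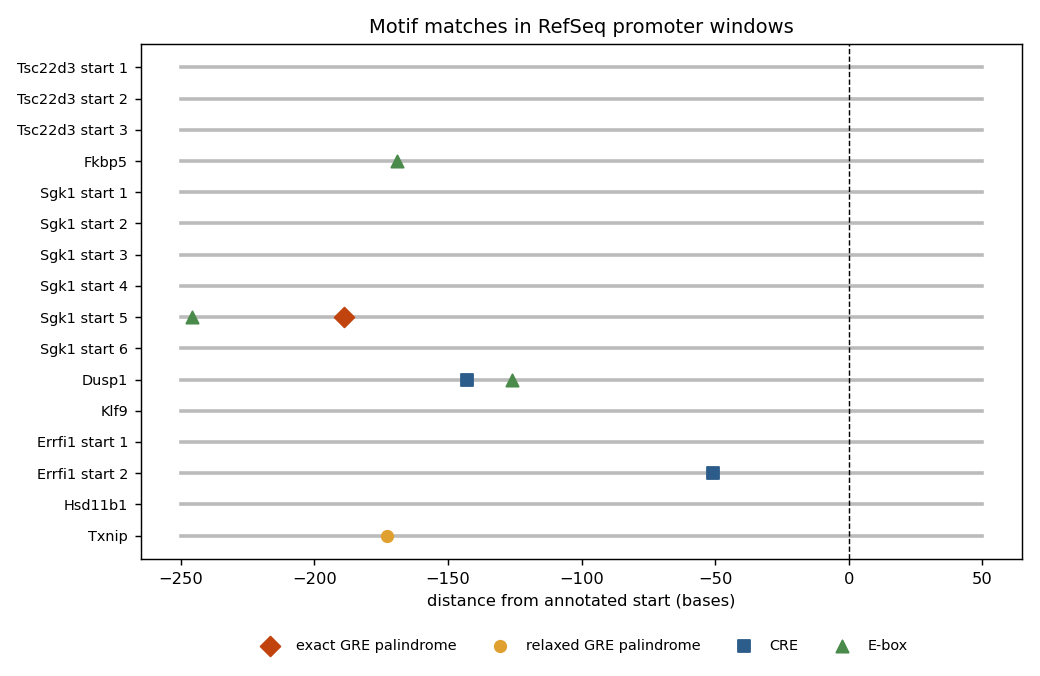
Positions of 4 motifs in the 16 RefSeq promoter windows of 8 genes, with distance from the annotated start in bases on the horizontal axis and 1 row per start (several starts of a gene are numbered by genome coordinate). The exact palindrome stands in 1 Sgk1 window, 189 bases before the start.

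The libraries held 17941303 to 18067298 counts in the exercise group and 18164094 to 18371949 in the sedentary group. Hepatocyte markers summed to 71739 to 72382 FPKM in exercise and 71211 to 72607 FPKM in sedentary libraries. Libraries within a group were close to identical, with a common biological coefficient of variation of 1.84%, and although the design names 3 mice per group, the labels do not tie each library to a mouse of its own. Here n counts libraries, and p-values measure the spread between these libraries alone, which may be technical. Of 10266 genes tested (mean FPKM of at least 1), 1961 were higher and 1952 lower in exercise (edgeR, adjusted p under 0.05). That split depended on the scaling. It was 3537 to 1203 (34.5% and 11.7% of tested genes, 46.2% together) with library totals in place of TMM scaling, and 2702 to 1081 (26.3% and 10.5%, 36.8% together) with limma on log2(FPKM + 1).

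Of the 9 genes, 7 were higher and 2 lower in exercise livers, and the 3 exercise values never overlapped the 3 sedentary values in any of them. Among all tested genes the FPKM groups did not overlap in 51%, with 36.6% higher and 14.3% lower in exercise. In the fit across all tested genes all 9 passed the threshold, where 38.1% of tested genes did (19.1% higher, 19% lower). A test against a fold change of 1.2 kept Zbtb16, Dusp1 and Errfi1, 3 of the 9, where 6.36% of tested genes passed (2.33% higher, 4.03% lower). DESeq2 called 8 of the 9, all but Sgk1, where 24.5% of tested genes were called (12.4% higher, 12.1% lower). With 1 summed library per group and an assumed biological coefficient of variation of 0.2, 0 of the 9 passed, where 0.224% did (0.0487% higher, 0.175% lower). These counts follow from a choice made with this contrast in view. They are no test of the 9 genes against all genes and are given for description only. The median log2 fold change of the 9 genes was 0.27, and that of all tested genes was −0.00062. The median absolute log2 fold change was 0.30 for the 9 genes and 0.12 for all tested genes, so most of these differences were small. Zbtb16 was the only one of the 9 to differ at least 2-fold, as 96 of the tested genes did.

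**Figure D2:**
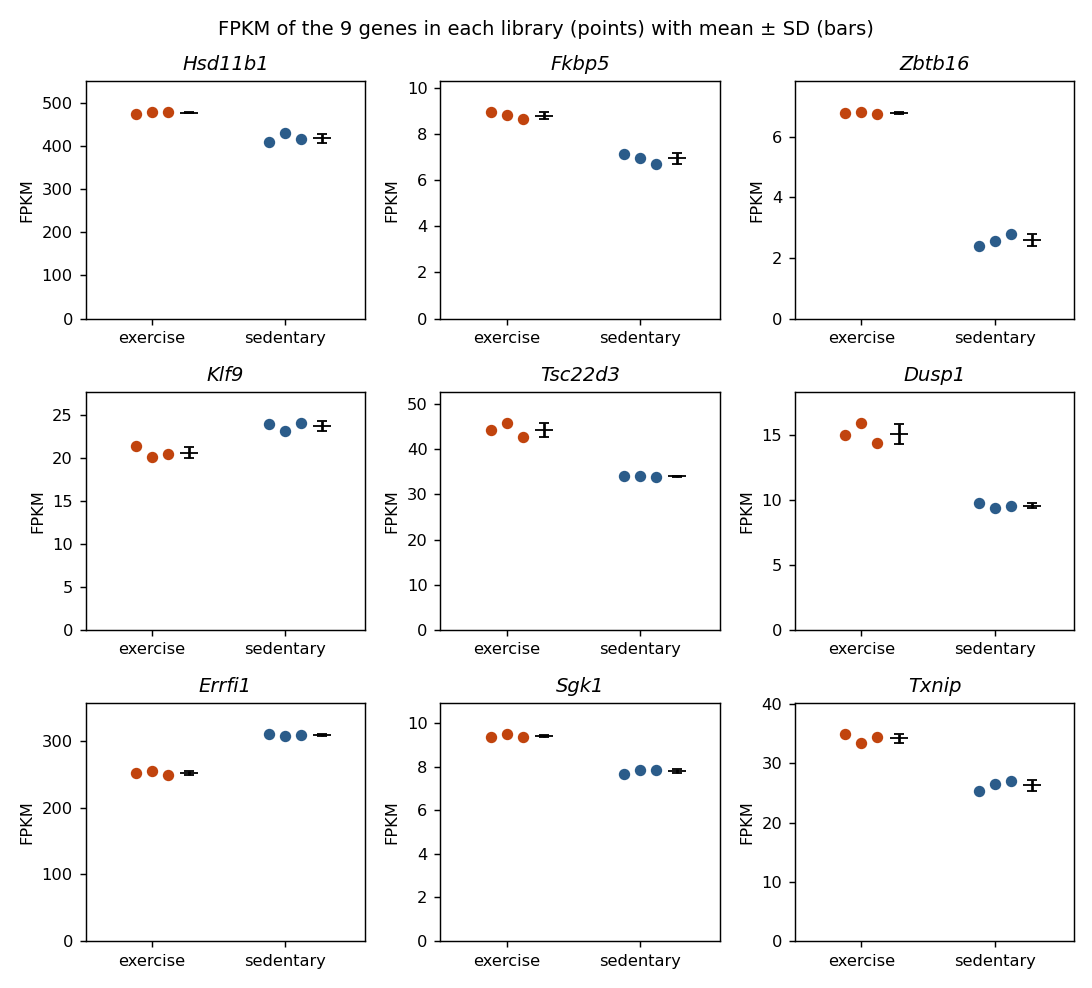
FPKM of the 9 genes in the 3 exercise and the 3 sedentary libraries (1 point per library), with the group mean ± SD beside the points, on vertical axes that start at 0. Exercise points lie above sedentary points for 7 genes and below them for Klf9 and Errfi1.

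Hsd11b1 and Fkbp5 set how much hormone signal a cell receives. Hsd11b1 encodes the enzyme of the endoplasmic reticulum that regenerates active glucocorticoid from its inactive form, and liver is a main site of its expression. Hsd11b1 (gene ID 15483, chromosome 1, 193221640 to 193264045) had 475, 478 and 479 FPKM in exercise livers, against 409, 429 and 416 FPKM in sedentary livers. The groups did not overlap, and the difference was the smallest of the 9, at a log2 fold change of 0.12 (SE 0.02), equal to the median absolute change of all tested genes. FPKM values carry no TMM scaling, unlike the log2 fold changes given here. With library totals the log2 fold change of Hsd11b1 was 0.20. Fkbp5 encodes a co-chaperone that lowers the hormone affinity of the receptor and is itself induced by the receptor, which closes a feedback loop. Fkbp5 (gene ID 14229, chromosome 17, 28398753 to 28486149) had 8.95, 8.80 and 8.63 FPKM in exercise livers, against 7.14, 6.98 and 6.70 FPKM in sedentary livers. Every exercise library was above every sedentary one, with a log2 fold change of 0.27 (SE 0.05).

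Zbtb16, Klf9 and Tsc22d3 encode regulators of transcription. Zbtb16 (also called PLZF) is a zinc finger repressor that the receptor strongly induces in many cell types. Zbtb16 (gene ID 235320, chromosome 9, 48651797 to 48836225) had 6.78, 6.82 and 6.77 FPKM in exercise livers, against 2.41, 2.55 and 2.80 FPKM in sedentary livers. The exercise libraries lay close together and far above the sedentary ones. By read counts, Zbtb16 had 896, 894 and 892 in exercise livers, against 324, 339 and 374 in sedentary livers. The log2 fold change was 1.31 (SE 0.05), or 2.49-fold, the 10th highest of the tested genes, and 0.429% of tested genes had a larger absolute change.

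Klf9 encodes a zinc finger factor with a glucocorticoid-driven daily rhythm in several tissues. Unlike Zbtb16, it was lower in exercise livers. Klf9 (gene ID 16601, chromosome 19, 23141226 to 23168129) had 21.3, 20.0 and 20.4 FPKM in exercise livers, against 24.0, 23.1 and 24.0 FPKM in sedentary livers. The groups did not overlap, and the log2 fold change was −0.28 (SE 0.03). Tsc22d3, or GILZ, encodes a leucine zipper protein that mediates anti-inflammatory effects of the hormone in immune cells. Tsc22d3 (gene ID 14605, chromosome X, 140539528 to 140600522) had 44.2, 45.8 and 42.8 FPKM in exercise livers, against 34.1, 34.0 and 33.8 FPKM in sedentary livers. All exercise libraries were higher, the sedentary ones were nearly equal to each other, and the log2 fold change was 0.30 (SE 0.03).

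Dusp1, Errfi1, Sgk1 and Txnip act on kinase signalling and on redox and glucose handling. Dusp1 encodes a phosphatase that switches off MAP kinases and is an early target of both glucocorticoids and stress signals. Dusp1 (gene ID 19252, chromosome 17, 26505591 to 26508472) had 15.0, 15.9 and 14.3 FPKM in exercise livers, against 9.76, 9.34 and 9.55 FPKM in sedentary livers. This was the widest difference after Zbtb16, with a log2 fold change of 0.58 (SE 0.06), and 3.64% of tested genes had a larger absolute change. Errfi1 (also called MIG6) encodes an inhibitor of the epidermal growth factor receptor and was, like Klf9, lower in exercise. Errfi1 (gene ID 74155, chromosome 4, 150853796 to 150868889) had 251, 255 and 249 FPKM in exercise livers, against 310, 307 and 309 FPKM in sedentary livers. The groups were well apart, with a log2 fold change of −0.37 (SE 0.02).

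Sgk1 encodes a kinase that promotes sodium transport and cell survival and is a classical mineralocorticoid and glucocorticoid target. Sgk1 (gene ID 20393, chromosome 10, 21882184 to 21999903), the gene whose window holds the exact palindrome, had 9.38, 9.49 and 9.38 FPKM in exercise livers, against 7.68, 7.86 and 7.87 FPKM in sedentary livers. The groups did not overlap, and the log2 fold change was 0.20 (SE 0.06), the second smallest of the 9 with TMM scaling. With library totals Sgk1 was at 0.28, and Klf9, at −0.20, was smaller in size. Txnip encodes an inhibitor of thioredoxin that also restrains glucose uptake. Txnip (gene ID 56338, chromosome 3, 96557957 to 96561857) had 34.9, 33.4 and 34.4 FPKM in exercise livers, against 25.3, 26.5 and 27.1 FPKM in sedentary livers. All exercise libraries were higher, with a log2 fold change of 0.31 (SE 0.04), close to that of Tsc22d3.

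**Figure D3:**
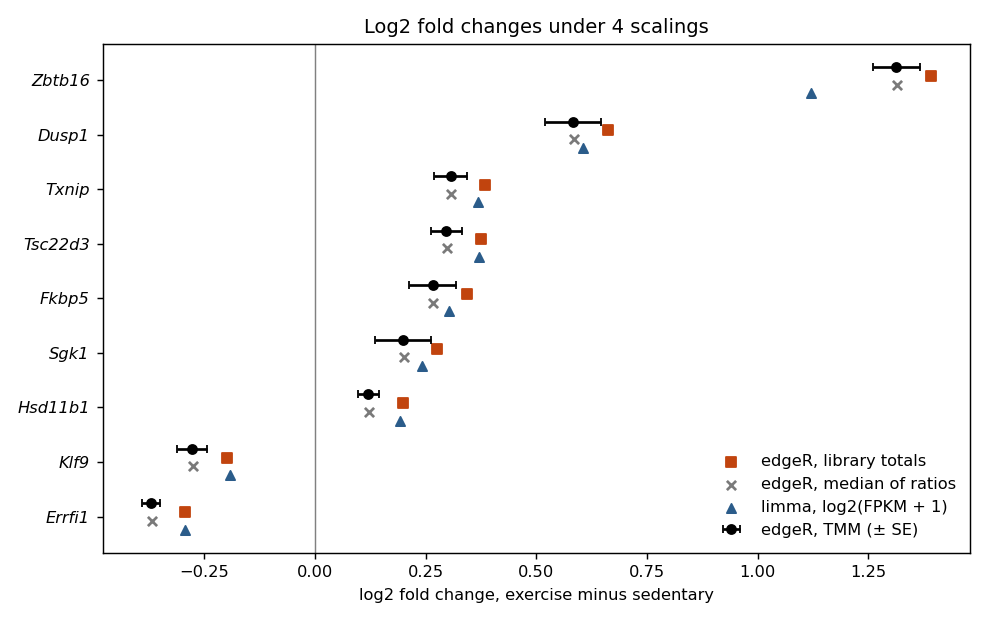
Log2 fold changes (exercise minus sedentary) of the 9 genes with 4 scalings, with SE bars on the TMM values. The 7 higher and the 2 lower genes kept their sides of 0 with each, and Zbtb16 was at 1.12 with limma on log2(FPKM + 1) and at 1.39 with library totals.

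The levels of the 9 genes, compared per transcript length by FPKM, covered a wide range, and their order was the same in both groups. Hsd11b1 stood first at a mean of 477 FPKM in exercise and 418 FPKM in sedentary livers, followed by Errfi1, Tsc22d3, Txnip, Klf9, Dusp1, Sgk1 and Fkbp5. Zbtb16 stood last at 6.79 FPKM in exercise and 2.59 FPKM in sedentary livers. No neighbours in this order overlapped in either group. The closest neighbours in exercise were Sgk1, at 9.38 to 9.49 FPKM, and Fkbp5, at 8.63 to 8.95 FPKM. Zbtb16 was below Fkbp5 in every library of both groups.

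The tested genes whose profile over the 6 libraries was most like that of Zbtb16 were Syvn1, Angptl8, Csad, Creld2 and Plin4. Likeness was the distance between profiles of log2 scaled counts, each centred on its own mean, and ran from 0.147 for Syvn1 to 0.299 for Plin4. The measure was taken over 6 libraries in 2 groups and is led by the difference between the groups. Syvn1, which encodes a ubiquitin ligase of the endoplasmic reticulum, averaged 69.9 FPKM in exercise and 27.9 FPKM in sedentary livers. Among the other 8 genes, Dusp1 was nearest to Zbtb16 at a distance of 0.918, rank 82 of the tested genes.

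The receptor itself and its partners were compared next, from a list of 20 genes that were all tested. This list and those below were chosen with earlier results of these data known. Their calls and p-values are therefore given as a description. The glucocorticoid receptor gene Nr3c1 fell to 8.96 ± 0.085 FPKM in exercise, against 10.1 ± 0.32 FPKM in sedentary livers (SD, n = 3 each), with a log2 fold change of −0.25 (SE 0.04, edgeR adjusted p = 1.64e-06). The mineralocorticoid receptor gene Nr3c2, whose product also binds glucocorticoids, fell to 2.14 ± 0.19 FPKM in exercise, against 2.93 ± 0.29 FPKM in sedentary livers (SD, n = 3 each), with a log2 fold change of −0.53 (SE 0.08, edgeR adjusted p = 1.43e-06). The 4 list genes called higher with the smallest p encode chaperones or co-chaperones. Hspa8, a constitutive heat shock protein, and Hsp90aa1, an HSP90 isoform, rose by log2 fold changes of 0.40 and 0.30, as did the co-chaperones Stip1 (0.25) and Ptges3 (0.21). Smarca4, which encodes a chromatin remodelling ATPase, fell by 0.24 on the log2 scale. In all, 9 of the 20 were called higher and 4 lower (edgeR), where 19.1% and 19% of all tested genes were, and the list median was 0.05. The count of higher genes was 6 or 7 with any 1 library left out and 4 by DESeq2.

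Steroid supply and clearance genes went both ways. Of 8 tested genes of the list, 5 were called higher and 3 lower (edgeR), where 19.1% and 19% of all tested genes were, with a median log2 fold change of 0.07. Serpina6, which encodes the corticosteroid-binding globulin of plasma, fell to 109 ± 1.3 FPKM in exercise, against 140 ± 3.8 FPKM in sedentary livers (SD, n = 3 each), with a log2 fold change of −0.43 (SE 0.03, edgeR adjusted p = 1.41e-17). H6pd, which supplies the cofactor of the Hsd11b1 enzyme, averaged 123 FPKM in exercise and 124 FPKM in sedentary livers, and its call as lower (log2 fold change −0.08) ended with library totals and with limma. Srd5a1 and Akr1d1, reductases that inactivate glucocorticoids, rose by 0.26 and 0.19 on the log2 scale. Cyp3a11, a cytochrome P450 that hydroxylates steroids, rose by 0.21 on the log2 scale. Akr1c6 rose by 0.07 and Cyp3a13 fell by 0.18 on the log2 scale. The Akr1c6 call ended without exercise replicate 3 (log2 fold change 0.05) and without sedentary replicate 3 (0.06), and the Cyp3a13 call with limma (−0.11). Hsd11b2, which inactivates the hormone in kidney, had reads in 1 sedentary library only and was too low to test. The split was 5 to 1 with limma on log2(FPKM + 1), and 3 to 3 without sedentary replicate 3.

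**Figure D4:**
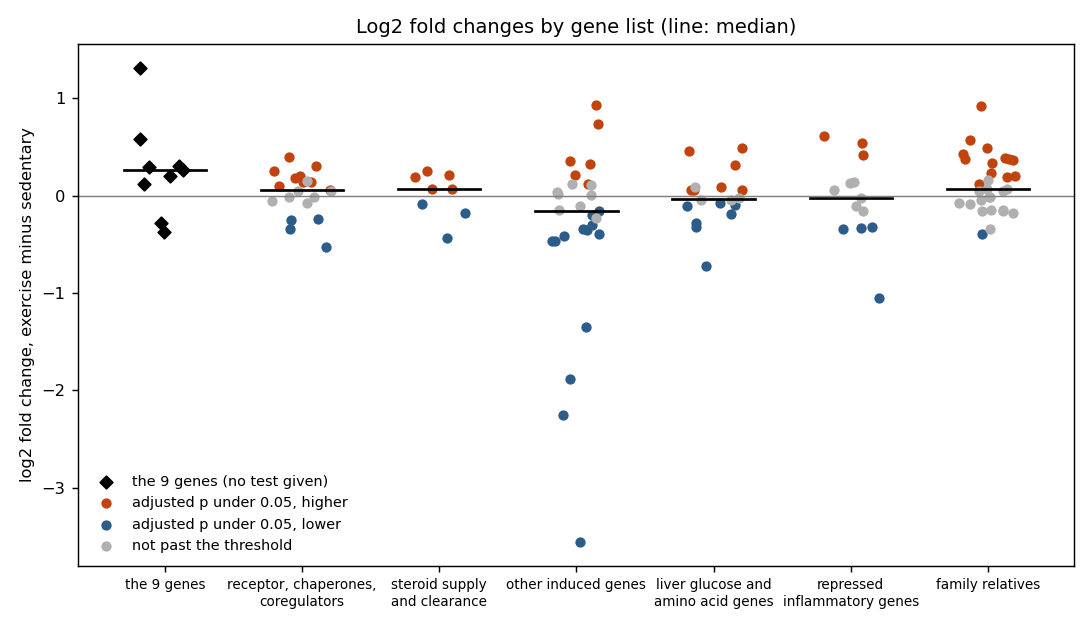
Log2 fold changes (exercise minus sedentary) of the 9 genes and of the tested genes of 6 lists, with 1 point per gene, colours for the edgeR call and a line at each median. The other induced genes reach lowest, to Mt2 at −3.56, and the relatives of the 9 genes lie on both sides of 0 with a median of 0.07.

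Among other genes known to be induced by glucocorticoids in several tissues, more fell than rose. Of 30 such genes 27 were tested, and 13 were called lower, 6 higher and 8 did not pass (edgeR). Over all tested genes 19% were called lower and 19.1% higher. The median log2 fold change of the list was −0.15. The metallothionein genes Mt2 and Mt1, whose products bind zinc and copper, fell most. Mt2 averaged 14.6 ± 2.6 FPKM in exercise and 166 ± 5.9 FPKM in sedentary livers (SD, n = 3 each), with a log2 fold change of −3.56 (SE 0.08, edgeR adjusted p = 5.25e-36). Gadd45g, a growth arrest gene, fell by 1.89 and Lpin1, a phosphatidate phosphatase gene, by 0.42 on the log2 scale. Among those that rose, the repressor gene Bcl6 averaged 22.5 ± 1.2 FPKM in exercise and 10.6 ± 0.55 FPKM in sedentary livers (SD, n = 3 each), with a log2 fold change of 0.93 (SE 0.04, edgeR adjusted p = 3.14e-23). Nfkbia, the inhibitor of NF-kappaB, rose by 0.36, the lipase inhibitor gene Angptl4 by 0.33 and the glutamine synthetase gene Glul by 0.21 on the log2 scale. The split of higher to lower calls was 8 to 11 with library totals and 7 to 9 with limma on log2(FPKM + 1).

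Liver genes for glucose production and amino acid use went both ways. All 18 were tested, and 7 were called higher and 7 lower (edgeR), where 19.1% and 19% of all tested genes were. The median log2 fold change of the list was −0.03. The gluconeogenic enzyme genes Pck1 and G6pc rose by 0.46 and 0.49, and the amino acid carrier gene Slc38a2 and the urea cycle gene Cps1 rose by 0.31 and 0.09 on the log2 scale. Igfbp1, a secreted binding protein for insulin-like growth factors, fell to 16.3 ± 1.2 FPKM in exercise, against 25.5 ± 2.1 FPKM in sedentary livers (SD, n = 3 each), with a log2 fold change of −0.72 (SE 0.06, edgeR adjusted p = 1.19e-13). The amino acid enzymes Sds, Agxt and Got1 fell by 0.32, 0.28 and 0.19 on the log2 scale. With library totals the split was 7 to 4 and the median 0.04.

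Of 24 inflammatory genes that glucocorticoids repress, 13 were tested and 11 were too low to test. Of those tested, 3 were called higher and 4 lower (edgeR), where 19.1% and 19% of all tested genes were. The median log2 fold change of the list was −0.02. The AP-1 gene Jun rose by 0.54 and the interleukin genes Il1b and Il1a by 0.61 and 0.41, while the chemokine gene Cxcl1 fell by 1.05 and Junb by 0.35 on the log2 scale. Csf1 and Nfkb2 fell by 0.32 and 0.33 on the log2 scale. The Il1a call ended by DESeq2 and without exercise replicate 1, 2 or 3 or sedentary replicate 2 (log2 fold changes 0.43, 0.41, 0.41 and 0.32), and the Nfkb2 call by DESeq2, with library totals and without sedentary replicate 1 (log2 fold change −0.24). The Csf1 call ended with limma and without exercise replicate 1 (−0.22). With library totals the split was 4 to 3 and the median 0.05.

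Relatives of the 9 genes from the same families were compared last. Of 36 relatives 30 were tested, and 13 were called higher and 1 lower (edgeR), where 19.1% and 19% of all tested genes were. Some relatives also stand on lists above, so the lists are not separate comparisons. The median log2 fold change of the list was 0.07. Klf10, a relative of Klf9, averaged 13.1 ± 0.38 FPKM in exercise and 6.55 ± 0.19 FPKM in sedentary livers (SD, n = 3 each), with a log2 fold change of 0.92 (SE 0.06, edgeR adjusted p = 3.66e-19), the opposite direction to Klf9. Klf12 fell by 0.40 on the log2 scale. Arrdc3, an arrestin-fold relative of Txnip, rose by 0.57, Dusp6, a phosphatase related to Dusp1, by 0.38, and Sgk2, a kinase related to Sgk1, by 0.34 on the log2 scale. At a mean FPKM of at least 5 the count of higher relatives was 8, as fewer were tested.

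Markers of several other liver cell types differed between the same groups, and in whole tissue fewer cells of a type cannot be told apart from less RNA per cell. Several of the 9 genes, among them Dusp1, Sgk1 and Tsc22d3, are also expressed in immune and endothelial cells. Over all tested genes 19.1% were called higher and 19% lower (edgeR). Kupffer cell and macrophage markers fell in 9 of 11 (edgeR), and summed to 321 to 326 FPKM in exercise and 371 to 383 FPKM in sedentary libraries. Liver endothelial markers rose in 5 of 10, and summed to 114 to 120 FPKM in exercise and 101 to 103 FPKM in sedentary libraries. Stellate and smooth muscle markers rose in 4 of 8 tested and fell in 1, and summed to 101 FPKM in exercise and 79.4 to 81.5 FPKM in sedentary libraries. None of the markers in these 3 lists was at 0 in a library. Pancreatic acinar markers summed to 8.17 to 8.68 FPKM in exercise and 17.5 to 18.4 FPKM in sedentary libraries, and 6 of 8 had no reads in any exercise library, while all had reads in each sedentary one. Bile duct markers summed to 32.7 to 34.6 FPKM in exercise and 63.0 to 65.6 FPKM in sedentary libraries. Neutrophil markers summed to 10.8 to 13.5 FPKM in exercise and 20.8 to 28.2 FPKM in sedentary libraries. For red cell markers the sums were 335 to 352 FPKM in exercise and 381 to 393 FPKM in sedentary libraries. Of the tested markers, 1 of 2 bile duct, 1 of 4 neutrophil and 4 of 5 red cell markers were called lower and 0 higher (edgeR). T and B cell markers were low, at sums of 5.97 to 6.35 FPKM in exercise and 5.59 to 6.45 FPKM in sedentary libraries. Adipocyte and skeletal muscle marker sums also overlapped between the groups, and 0 tested markers of these lists or of T and B cells were called. A sum can be led by 1 marker with a high level, and need not describe the other markers. The part of these markers in the differences of the 9 genes was not tested.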

How the data were processed

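Liver RNA was sequenced in pairs on a DNBseq instrument, after perfusion with saline and TRIzol extraction, per the labels' protocols. The submitters' processing notes name GRCm38.p6, cutadapt, featureCounts and MultiQC. Aligner, annotation and use of strand: not given in the sources used here. Per the file headers, the authors deposited read counts, FPKM and TPM values for each gene and library. The deposited read counts are estimated counts, since 1165 genes had fractional values. None of the 9 genes was among them, but of the other genes named, Cyp3a13 and Klf12 were, so how their reads were split is uncertain. The TPM values and 6 columns of the authors' averages were not used.

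Counts were rounded and compared, exercise against sedentary, with the two-sided quasi-likelihood F test of edgeR 4.0.16 in R 4.3.3, with TMM scaling (factors 1.03 in exercise and 0.972 to 0.977 in sedentary libraries) and no covariate. The tested genes averaged 1 FPKM or more, with Benjamini-Hochberg adjustment over all 10266 at 0.05. Fold changes use a prior count of 0.125, and a standard error is the log2 fold change over the square root of F. Alternatives used DESeq2 1.42.0, limma 3.58.1 on log2(FPKM + 1) and log2(FPKM + 0.1), other filters and scalings, and 1 library left out at a time. The test was checked on simulated data. The members and the lists were chosen with earlier results of these data known. Genes named are the 9, Nr3c1, Nr3c2, H6pd, Serpina6 and Hsd11b2, up to 4 genes called in each direction per list by smallest p, the extremes of each list, and the 5 genes nearest to Zbtb16. A gene that this rule selects is not reported here. Coordinates are RefSeq's, counted from 1.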

Additional observations from a re-analysis of the deposited data

How the results depend on the processing

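The 9 genes kept their direction in all alternatives that could give a value, 16 for each gene and 15 for Zbtb16, whose mean FPKM was under 5. Their sizes were less steady. Each log2 fold change moved by more than the gene's SD within groups in 2 or 3 alternatives. With library totals in place of TMM scaling, Hsd11b1 was at 0.20 (0.12 with TMM) and Klf9 at −0.20 (−0.28 with TMM). With 1 library left out, 3402 to 3491 genes were called, 1712 to 1761 higher and 1688 to 1753 lower. DESeq2 called 2512 genes (1272 higher and 1240 lower), the test against 1.2-fold 653 (239 and 414), and the summed libraries 23 (5 and 18). Lower calls numbered 1028 with limma on log2(FPKM + 0.1) and 1081 on log2(FPKM + 1), and library totals gave 3537 higher and 1203 lower.

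Among the lists, with summed libraries 3 of the other induced genes were called lower and no further list gene was called in either direction. In the test against 1.2-fold, higher and lower calls were 1 and 1 for receptor and partners, 0 and 1 for steroid handling, 1 and 6 for other induced genes, 2 and 1 for liver genes, 1 and 1 for repressed genes, and 3 and 1 for relatives. By DESeq2, 4 receptor and partner genes were called higher. With limma on log2(FPKM + 0.1), calls were 1 lower for steroid handling, 8 lower for other induced genes, 3 lower for liver genes and 5 higher for repressed genes. With limma on log2(FPKM + 1) they were 1 lower for steroid handling and 4 lower for liver genes, and library totals also gave 4 lower liver genes. At a mean FPKM of at least 5, calls were 1 higher and 2 lower for repressed genes, and 8 higher and 0 lower for relatives. Counts with 1 library left out ranged from 3 to 5 for higher steroid genes. Fewer genes were tested at the higher FPKM minimum, and for the other moves the cause was not tested.

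Same-numbered libraries of the groups did not deviate together (correlations of −0.031, −0.016 and −0.025). The deviations within a group were small, so these correlations cannot show whether the libraries were paired. A fit with the replicate block called 3846 genes.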

Other observations

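The spread of read counts within a group differed widely among the 9 genes. Counting noise alone gives a variance equal to the mean on average. With 3 libraries their ratio is imprecise and often falls under 1 from counting noise alone. For Zbtb16 the ratio was 0.0045 in exercise and 1.90 in sedentary libraries, and for Sgk1, with counts of 367, 369 and 367 in exercise and 305, 309 and 310 in sedentary libraries, it was 0.0036 and 0.023. For Hsd11b1 it was 0.364 in exercise and 3.76 in sedentary libraries. The ratio was under 1 for 7 of the 9 genes in exercise and for 4 of the 9 in sedentary libraries. Over 10194 tested genes with a mean count of at least 20, the median ratio was 0.888 in exercise and 0.828 in sedentary libraries. The mean ratio of the same genes was 1.63 in exercise and 1.58 in sedentary libraries.

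The transcript length implied by the deposited counts and FPKM was steady across libraries, from 7.30 to 7.32 kb for Zbtb16 and from 1.03 to 1.05 kb for Hsd11b1. It varied most for Tsc22d3, from 2.01 to 2.11 kb.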
